A study of Homo sapiens with 6 samples.

Results

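The nuclear genes of oxidative phosphorylation were examined in U251, an established human glioblastoma cell line, with and without stable overexpression of PD-L1. Members were protein-coding genes whose symbols begin with NDUFA, NDUFB, NDUFC, NDUFS, NDUFV, UQCR, ATP5 (without ATP5S, also named DMAC2L) or COX4 to COX8, together with SDHA, SDHB, SDHC, SDHD and CYC1. The rule found 99 of the 57773 genes in the count table. They comprise 37 genes of complex I, 8 complex I assembly factors whose symbols begin with NDUFAF, 4 genes of complex II, 10 of complex III, 19 of complex IV and 18 of complex V. The other 3 are the read-through genes NDUFC2-KCTD14 and ATP5MF-PTCD1 and the copy gene ATP5MGL.

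PD-L1, the product of CD274, sits on the cell surface and binds the receptor PD-1 of T cells. The study asked which transcripts differ between U251 cells carrying PD-L1 and cells carrying the vector, both made as stable lines by lentiviral infection. Each line gave 3 culture dishes at passage 5 to 10, grown in DMEM with 10% fetal bovine serum and lysed 12 h after passage. Libraries were made from 3 µg of total RNA by poly-T selection and a kit that does not mark strand. The PD-L1 dishes and the Vector dishes each came from 1 transduced line. The p-values therefore measure the spread between dishes, not between independent transductions. Reads from whole dishes cannot tell fewer cells with a transcript from less transcript per cell.

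Oxidative phosphorylation takes electrons from NADH at complex I and from succinate at complex II, passes them through coenzyme Q, complex III and cytochrome c to oxygen at complex IV, and uses the resulting proton gradient to make ATP at complex V. Complexes I, III, IV and V combine a few subunits encoded in mitochondrial DNA with many encoded in the nucleus, whereas complex II is nuclear only. Glioblastoma cells use both glycolysis and respiration, and the balance between them differs among cell lines.

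Total counts ranged from 15678989 to 22270509 per dish, and a count of 3 corresponded to 0.135 to 0.191 CPM (counts scaled to a common library size). CD274 gave 26827, 22001 and 23046 counts in PD-L1 dishes 1 to 3 and 34, 71 and 41 in the Vector dishes, a log2 fold change of 9.07 ± 0.18 (SE; edgeR FDR 1.447e-12). All 10 glioma and astrocyte markers had reads, with summed levels of 662 to 804 CPM in PD-L1 and 1119 to 1307 CPM in Vector dishes. Of the 10, 8 were called lower in PD-L1 dishes (edgeR FDR under 0.05), against 7.2% of all tested genes. Only 1 of the 10, SLC1A3, had a log2 fold change above 0. Summed marker levels of other cell types were at most 19.3 CPM for neurons, 9.34 for oligodendrocytes, 4.09 for endothelial cells, 5.06 for immune cells and 39.0 for epithelial cells, and MOG and CD68 were at 0 in every Vector dish. The part of the marker differences in the results below was not tested. PD-L1 dish 3 stood apart from PD-L1 dishes 1 and 2: over all genes 1384 were called with it and 3512 without it, so the calls below are given with and without it.

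Members held between 1.09% and 1.24% of all counts in a dish. Of the 99 members, 95 had at least 1 read and 90 passed the filter on low counts and were tested. The 9 untested members were NDUFA13, the isoform genes COX4I2, COX6A2, COX6B2, COX7A1 and COX8C, and the 3 read-through or copy genes.

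Promoter sequence was available for 78 of the 99 members, as windows from 250 bases before to 50 after the start of each gene (RefSeq, GRCh38.p14). Transcription factors NRF1, YY1 and the ETS-type factor GABP are known to bind near the starts of many respiratory chain genes. Counting either strand, the NRF1 motif (GCGC, any base, TGCGC) was found in 18 of the 78 members (23.1%) against 9.67% of 15843 protein-coding genes. AANATGGCG (the YY1 motif) was found in 18 members (23.1%) against 5.59%, and CCGGAAG (an ETS motif) in 23 (29.5%) against 16.5%. No motif is contained in another, but their ends can overlap, as the last AAG of the ETS motif can open the YY1 motif. At least 1 of them was found in 46 members (59%) against 27.5% of all genes, although members had slightly fewer windows per gene (1.231 against 1.401). These matches describe the letters only and are not evidence of binding in U251 cells.

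Of the 9 members that were lower without PD-L1 dish 3, described below, 6 had a promoter window. These were picked by their calls, and any link between the letters and the calls was not tested. The YY1 motif, in capitals, lies just after the start of 3 of the 6 genes and upstream of the start in NDUFS8. The motif contains ATG, and its overlap with the start of translation was not examined. Each line gives 30 bases read 5′ to 3′ on the strand of the gene, and positions count the first transcribed base as 1.
NDUFS7 (chr19:1383914-1383943, plus strand, motif at 18): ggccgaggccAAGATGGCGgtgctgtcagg
NDUFS8 (chr11:68030491-68030520, plus strand, motif at -180): tccccaaaccAACATGGCGgccccctacaa
SDHB (chr1:17054003-17054032, minus strand, motif at 11): gtcaggagccAAGATGGCGgcggtggtcgc
UQCRC1 (chr3:48609604-48609633, minus strand, motif at 24): ctgcagctggAAGATGGCGgcgtccgtggt

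The 100 bases before the start of UQCRC1 also hold the NRF1 motif, at -47, and those of NDUFB7 and COX6B1 hold the ETS motif, at -24 and at -12. The motif of COX6B1 stands in reverse as CTTCCGG. SDHB holds the ETS motif farther upstream, at -128. Motifs are again in capitals.
UQCRC1 (chr3:48609647-48609746, minus strand): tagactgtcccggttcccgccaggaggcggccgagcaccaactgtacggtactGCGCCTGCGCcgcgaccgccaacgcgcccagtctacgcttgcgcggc
NDUFB7 (chr19:14572067-14572166, minus strand): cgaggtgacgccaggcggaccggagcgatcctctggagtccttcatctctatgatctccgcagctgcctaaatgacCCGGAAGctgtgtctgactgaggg
COX6B1 (chr19:35648223-35648322, plus strand): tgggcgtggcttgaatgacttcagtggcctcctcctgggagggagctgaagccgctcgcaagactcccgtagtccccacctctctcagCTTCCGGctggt

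Levels within a complex were compared as CPM per kilobase of transcript in Vector dishes. In complex I, NDUFS5, an accessory subunit, was highest at 541 CPM per kilobase. Complex II was led by SDHB (88.2) and SDHA (86.7), its iron-sulfur and flavoprotein subunits, above the membrane anchors SDHD (33.2) and SDHC (11.7). The SDHC value rests on an annotated transcript of 13566 bases. On the CPM scale SDHC (159) stood above SDHB (102) in Vector dishes. In complex III, UQCRH, the hinge protein, stood at 498 CPM per kilobase and CYC1, which holds cytochrome c1, at 340. COX7C was highest in complex IV at 723, followed by COX7A2 (486) and COX4I1 (457). ATP5F1B, the catalytic beta subunit, led complex V at 573 CPM per kilobase, with ATP5MC3 at 378, and on the CPM scale it alone made up 30.6% of the complex V sum.

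Several subunits were listed far below others of the same complex. NDUFV2, a core subunit of the NADH-binding arm of complex I, had 12, 9 and 2 counts in PD-L1 and 8, 11 and 7 in Vector dishes. NDUFV1, its direct partner, had 4892, 3866 and 5392 in PD-L1 and 5447, 5072 and 4425 in Vector dishes. Low levels were found mostly in members whose exons are shared with another annotated gene. Leaving out the read-through and copy genes, 19 members had a Vector mean under 10 CPM, and 13 of these 19 had over 10% of their transcript inside exons of another gene (GENCODE 29, either strand), with a median of 30.59%. Among the 77 members at 10 CPM or more, 15 had such an overlap and the median was 0%. The same comparison for stretches of 50 bases found elsewhere in the transcriptome gave 9 of 19 members over 10% against 8 of 77.

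The share of the transcript inside other genes was 82.9% in NDUFV2, 78.7% in NDUFA7, 71.68% in NDUFB8, 70.28% in ATP5PO, 66.98% in NDUFA11, 49.86% in ATP5ME and 44.1% in NDUFA13. NDUFA7 overlaps exons of RPS28, a ribosomal protein gene with 50068 counts over the 6 dishes, and NDUFB8 overlaps HIF1AN (9676 counts). A further protein-coding gene annotated over NDUFA7 had 1 count, and a further one over NDUFB8 had 0. Genes annotated over NDUFA11 had 4 and 0 counts, over ATP5PO 857 and 0, over NDUFA13 214 and 0, and over ATP5ME 461. The gene annotated over NDUFV2 had 0 counts. How the authors' counting treated reads in shared exons has no description in the sources used here, so the absolute levels of these members are uncertain, and the cause of the low levels was not tested. The remaining members under 10 CPM without such an overlap were COX4I2, COX7A1, COX7B2, COX8C, NDUFA4L2 and UQCRHL, 5 of them isoform genes of complex IV and the last an intronless copy of UQCRH.

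**Figure D1:**
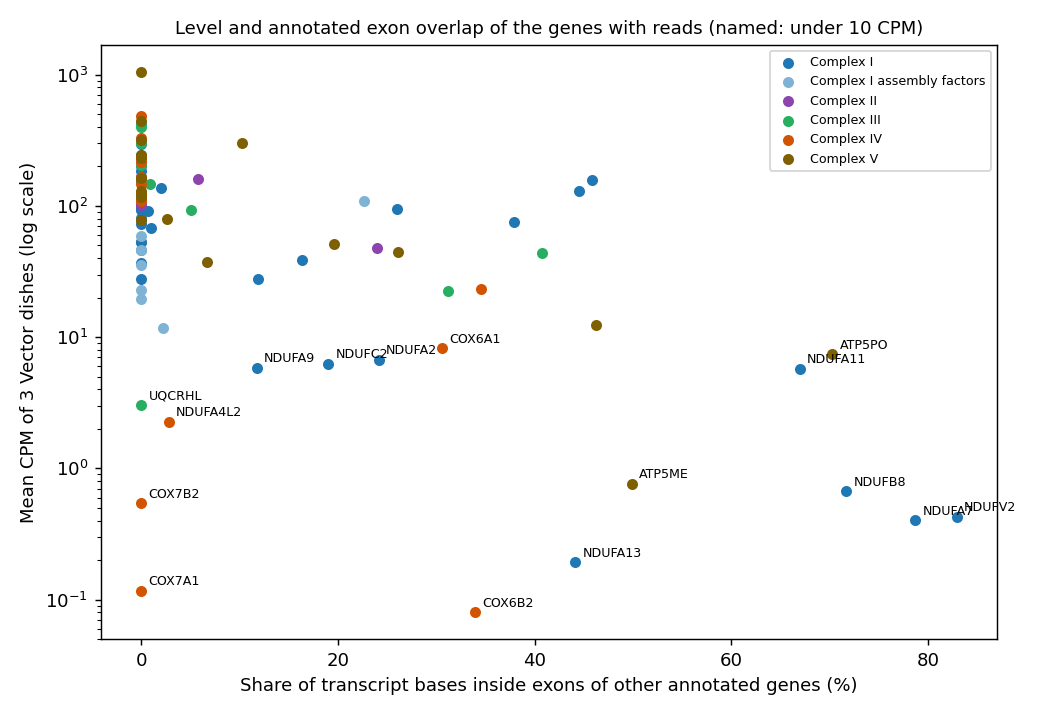
Share of each member's transcript inside exons of other annotated genes (x axis, percent) against its mean level in the 3 Vector dishes (y axis, CPM, log scale), 1 point per gene and coloured by complex; the 3 members without reads are not drawn. Members under 10 CPM carry their symbol, and 13 of the 19 such members, counting those without reads, had an overlap above 10%, up to 82.9% for NDUFV2.

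Complex IV and complex V have subunits encoded by alternative genes, which differ in their tissue of expression. By counts, the widely expressed form led in each pair in U251 cells. Over the 6 dishes COX4I1 had 38075 counts and COX4I2 had 0, and COX6A1 had 989 and COX6A2 had 0. COX8A had 2686 counts and COX8C had 0. COX6B1 gave 18198 counts against 13 for COX6B2, the testis form, and COX7A2 gave 27074 against 13 for COX7A1, the heart and muscle form. The form with more counts was the same in every dish of both lines. A count of 0 allows a level of up to 0.135 to 0.191 CPM in a dish, for counting error only. Subunit c of ATP synthase, which forms the rotating ring, is the same mature protein from ATP5MC1, ATP5MC2 and ATP5MC3. ATP5MC3 gave 47.4% ± 0.87 of subunit c counts in PD-L1 and 46.3% ± 0.48 in Vector dishes (SD, n = 3), and ATP5MC1 gave 18.7% ± 0.54 and 18.2% ± 0.60. The share of ATP5MC2 was 33.4%, 34.0% and 34.3% in PD-L1 and 35.8%, 34.8% and 36.0% in Vector dishes. The groups did not overlap in that share, but 3 dishes against 3 cannot give an exact two-sided permutation p below 0.1.

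Across all 6 dishes the members differed little between the lines. Only NDUFA4L2 passed an FDR of 0.05 in edgeR's quasi-likelihood test, 1 of 90 tested members, against 8.75% of all 15818 tested genes called in either direction and 7.2% called lower. Including NDUFA4L2, 7 of 90 members had an unadjusted p under 0.05, against 3735 of 15818 genes. The median log2 fold change (PD-L1 minus Vector) was 0.05 for members and 0.02 for all tested genes. Values above 0 were found in 65 of 90 members and in 8475 of 15818 genes. Without PD-L1 dish 3 these numbers were 44 of 91 members and 8138 of the same 15818 genes. With the correction for GC content and length described below, 47 of 90 members and 9107 genes were above 0. Over all 6 dishes without correction, member values ranged from -1.11 for NDUFA4L2 to 0.35 for NDUFA7. The counts of NDUFA7 were only 13, 10 and 6 in PD-L1 and 9, 13 and 3 in Vector dishes.

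The precision of these values bounds the size of any difference. The 95% interval lay within 1.5-fold in either direction for 83 of 90 members (92.2%), against 66.8% of all tested genes. The 7 members with wider intervals were NDUFA7, NDUFV2, NDUFB8, UQCRHL, COX7B2, ATP5ME and NDUFA4L2, all with Vector means of 3.05 CPM or less. CPM of the PD-L1 and Vector dishes did not overlap for 10 of 90 members, 8 higher and 2 lower, against 27.6% of all tested genes. The 8 higher were NDUFA1, NDUFAF6, SDHC, UQCR11, UQCRHL, COX7B2, ATP5IF1 and ATP5PF, and the 2 lower were NDUFAF1 and NDUFA4L2.

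**Figure D2:**
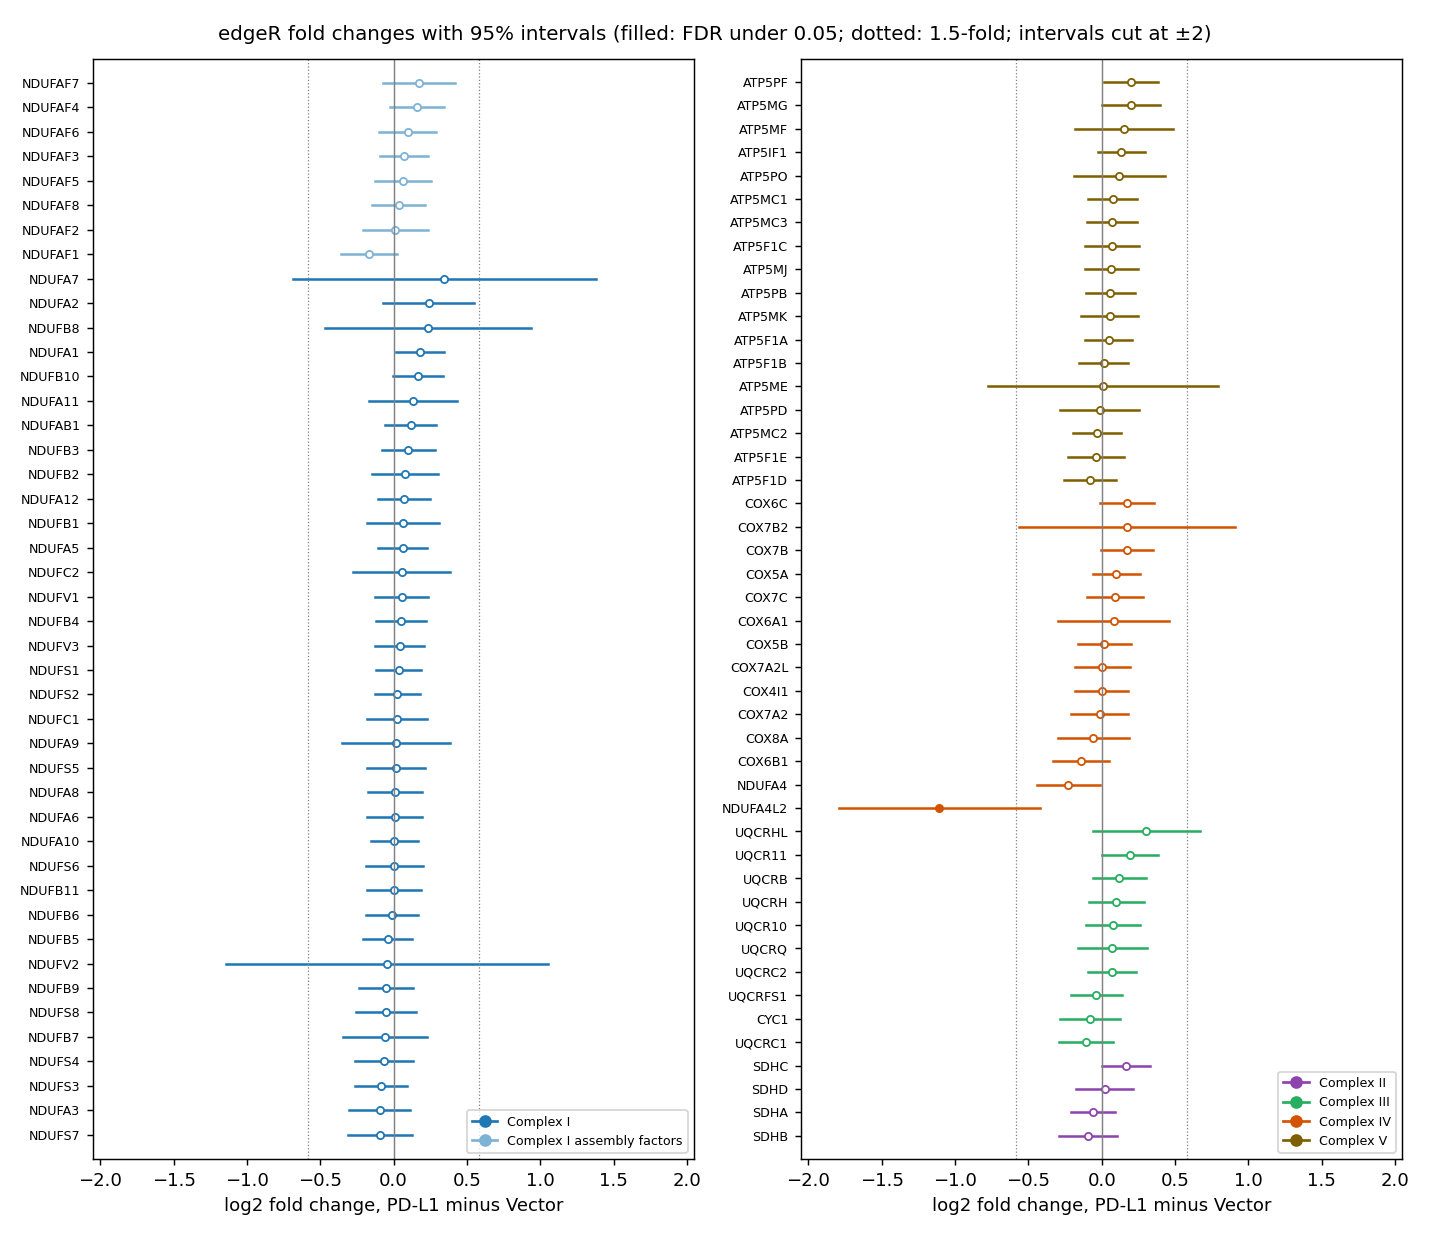
Log2 fold change of each tested member (x axis, PD-L1 minus Vector, 3 dishes each) with its 95% interval from edgeR, grouped by complex and ordered by value within it; filled points have an FDR under 0.05. NDUFA4L2 at -1.11 is the only filled point, and 83 of the 90 intervals lie between the dotted lines at 1.5-fold.

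By complex, the median log2 fold change was 0.02 for complex I (36 tested), 0.07 for its assembly factors (8), -0.02 for complex II (4), 0.07 for complex III (10), 0.01 for complex IV (14) and 0.06 for complex V (18). The summed CPM of all members was 11386, 10882 and 12718 in PD-L1 and 11412, 11892 and 11039 in Vector dishes. PD-L1 dish 3 had the highest sum and PD-L1 dish 2 the lowest, so the groups overlapped, with means of 11662 ± 949 and 11448 ± 427 CPM (SD, n = 3).

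In complex I, 0 of 36 tested members were called, against 8.75% of all tested genes. NDUFA1, an accessory subunit, and NDUFB10 of the membrane arm had the lowest FDR. NDUFA1 stood at 144, 140 and 155 CPM in PD-L1 and 135, 132 and 121 CPM in Vector dishes. Every PD-L1 dish was above every Vector dish, yet the log2 fold change was 0.18 ± 0.08 (SE; edgeR FDR 0.166). NDUFB10 gave 190, 166 and 197 CPM against 165, 171 and 159 CPM, with overlapping groups (0.16 ± 0.08, edgeR FDR 0.226). NDUFS5, the most abundant complex I member per kilobase, gave 279, 270 and 343 CPM in PD-L1 and 299, 305 and 279 CPM in Vector dishes. PD-L1 dish 3 was the highest of all and PD-L1 dish 2 the lowest (0.01 ± 0.09, edgeR FDR 0.948).

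The assembly factors, which help to build complex I and are not part of the finished enzyme, also had 0 of 8 called. The share over all tested genes was 8.75%. NDUFAF4 gave 65.4, 63.7 and 69.2 CPM in PD-L1 and 53.6, 64.1 and 59.7 CPM in Vector dishes (log2 fold change 0.16 ± 0.08, edgeR FDR 0.271). NDUFAF1 gave 32.9, 33.1 and 29.4 CPM against 34.1, 38.4 and 34.6 CPM, lower in every PD-L1 dish (-0.17 ± 0.09, edgeR FDR 0.277). NDUFAF8 had the highest level per kilobase (187) and NDUFAF5 the lowest (4.1), and their log2 fold changes were 0.04 and 0.07.

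Complex II, the succinate dehydrogenase, had 0 of 4 members called, against 8.75% of all tested genes. SDHA gave 193, 197 and 206 CPM in PD-L1 and 206, 201 and 215 CPM in Vector dishes (log2 fold change -0.06 ± 0.07, edgeR FDR 0.642). SDHC gave 180, 171 and 185 CPM against 152, 171 and 155 CPM, with PD-L1 dish 2 only just above Vector dish 2 (0.17 ± 0.07, edgeR FDR 0.195). The annotated SDHC transcript used here has 13566 bases, and its level per kilobase depends on the transcript chosen. SDHD was nearly level at 50.7, 47.4 and 47.1 CPM against 42.6, 52.0 and 48.8 CPM (0.02 ± 0.09, edgeR FDR 0.922).

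In complex III, 0 of 10 members were called, against 8.75% of all tested genes. UQCR11, a small membrane subunit, gave 26.2, 24.5 and 27.2 CPM in PD-L1 and 23.4, 22.5 and 22.0 CPM in Vector dishes, without overlap (log2 fold change 0.20 ± 0.09, edgeR FDR 0.199). UQCRHL, the copy of UQCRH, gave 85, 61 and 63 counts against 68, 58 and 59, and reads of UQCRH could be split between the copies (0.31 ± 0.17, edgeR FDR 0.300). UQCRH itself stood at 315, 288 and 362 CPM in PD-L1 and 298, 315 and 289 CPM in Vector dishes, with a log2 fold change of 0.10.

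Complex IV held the only call, 1 of 14 tested members (7.14%), against 8.75% of all tested genes. NDUFA4L2 is a paralogue of NDUFA4, a complex IV subunit once assigned to complex I, and is known as a gene induced in hypoxia. NDUFA4L2 gave 11, 16 and 31 counts in PD-L1 and 55, 38 and 45 counts in Vector dishes, or 0.54, 0.99 and 1.66 against 2.53, 1.86 and 2.42 CPM. The groups did not overlap, PD-L1 dish 3 was nearest to the Vector dishes, and the log2 fold change was -1.11 ± 0.32 (SE; edgeR FDR 0.0466). The call ended when any 1 dish other than PD-L1 dish 3 was left out: the edgeR FDR was 0.198 and 0.124 without PD-L1 dishes 1 and 2, and 0.191, 0.0635 and 0.101 without Vector dishes 1 to 3. Without PD-L1 dish 3 the log2 fold change was -1.61 (edgeR FDR 9.18e-04).

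NDUFA4 was also lower in mean, with 3459, 2796 and 3927 counts in PD-L1 and 5011, 4639 and 3492 counts in Vector dishes, or 169, 172 and 210 against 231, 227 and 188 CPM. PD-L1 dish 3 lay above Vector dish 3, and the difference did not pass (log2 fold change -0.23 ± 0.10, edgeR FDR 0.185). NDUFA4L2 counts were 0.318%, 0.572% and 0.789% of NDUFA4 counts in PD-L1 dishes and 1.10%, 0.819% and 1.29% in Vector dishes, so that NDUFA4L2 was the minor form in every dish. COX7A2L, which joins complexes III and IV into supercomplexes, gave 105, 98.3 and 123 CPM against 108, 114 and 104 CPM (log2 fold change 0.00 ± 0.09, edgeR FDR 0.981).

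In complex V, 0 of 18 members were called, against 8.75% of all tested genes. ATP5F1B gave 1057, 1013 and 1120 CPM in PD-L1 and 1017, 1096 and 1048 CPM in Vector dishes, with a log2 fold change of 0.01 ± 0.08 and a 95% interval of -0.16 to 0.18. ATP5PF, the coupling factor of the peripheral stalk, gave 57.3, 53.9 and 64.3 CPM against 49.0, 52.5 and 51.2 CPM, higher in every PD-L1 dish (0.20 ± 0.09, edgeR FDR 0.168). ATP5MG, a membrane subunit, gave 1104, 736 and 1028 counts against 982, 961 and 784 counts (0.20 ± 0.09, edgeR FDR 0.200). ATP5IF1, which inhibits ATP hydrolysis by the enzyme, gave 181, 165 and 188 CPM against 164, 164 and 157 CPM. Its log2 fold change was 0.14 ± 0.07 (edgeR FDR 0.294).

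The 3 PD-L1 dishes disagreed among themselves in these genes. Relative to the mean of the Vector dishes, the median member stood at 0.03, -0.05 and 0.17 log2 units in PD-L1 dishes 1 to 3 and at 0.01, 0.05 and -0.06 in Vector dishes 1 to 3, while the median over all tested genes was at most 0.01 in each dish. PD-L1 dish 3 was above both other PD-L1 dishes in 75 of 90 members (83.3%), against 41.8% of all tested genes, and was the highest of the 6 dishes in 60 (66.7%) against 20.1%. Its medians were 0.17 for complex I, 0.06 for complex II, 0.19 for complex III, 0.18 for complex IV and 0.20 for complex V, and in complex IV it was above both other PD-L1 dishes in 14 of 14 tested members. Members have short transcripts, with a median of 897 bases against 2535 over all tested genes. The 1971 tested genes with transcripts under 1000 bases had a median of 0.14 in PD-L1 dish 3, the 50 members in that class 0.20, and the 40 longer members 0.11. What moved these genes in PD-L1 dish 3 was not tested.

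**Figure D3:**
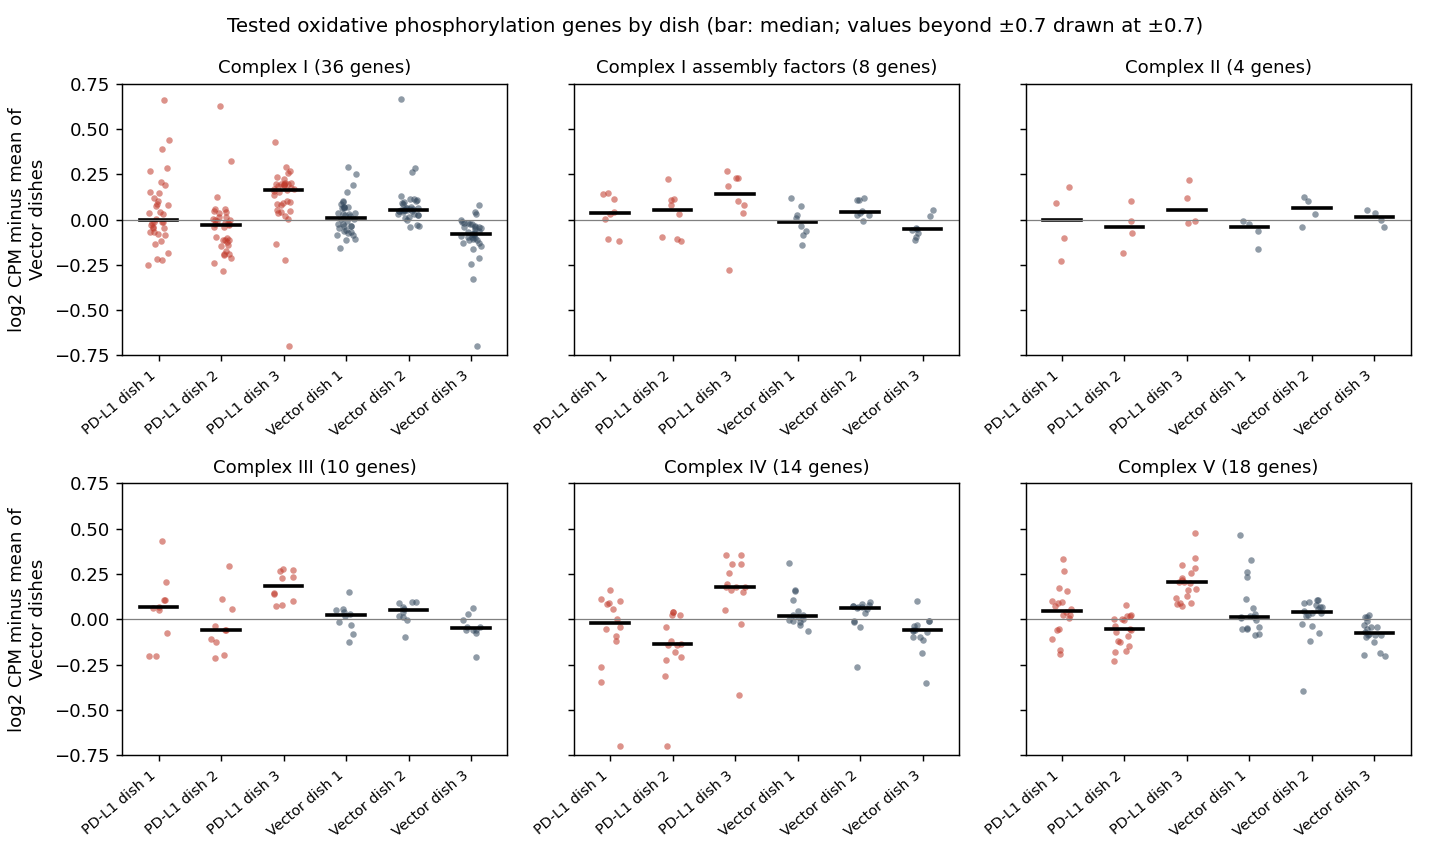
Log2 CPM of each tested member minus its mean over the 3 Vector dishes (y axis), by dish (x axis) and by complex (panels); points are genes, spread sideways for view, and bars are medians. PD-L1 dish 3 has the highest median in complexes I, III, IV and V, between 0.17 and 0.20.

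Without PD-L1 dish 3, 9 of 91 tested members were called, all lower, against 21.6% of all genes called in either direction and 13.8% called lower, so the share of members stayed under that of all genes. The 9 were NDUFB7, NDUFS7 and NDUFS8 of complex I, SDHB of complex II, CYC1 and UQCRC1 of complex III, and COX6B1, NDUFA4 and NDUFA4L2 of complex IV. In the 8 other than NDUFA4L2, the log2 fold change lay between -0.34 and -0.19.

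NDUFS7 and NDUFS8 are core iron-sulfur subunits of complex I on the path of electrons to coenzyme Q. NDUFS7 gave 64.8, 65.5 and 83.2 CPM in PD-L1 and 79.5, 79.1 and 69.3 CPM in Vector dishes, and its log2 fold change went from -0.09 to -0.22 without PD-L1 dish 3 (edgeR FDR 0.0385). NDUFS8 gave 133, 132 and 172 CPM against 153, 154 and 146 CPM (-0.19, edgeR FDR 0.0396). For NDUFB7, an accessory subunit, the values were 67.5, 66.0 and 98.3 against 85.4, 81.8 and 74.3 CPM (-0.27, edgeR FDR 0.0114). In all 3 genes PD-L1 dish 3 was the highest of the 6 dishes and PD-L1 dishes 1 and 2 were the lowest.

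The same order held for SDHB, CYC1 and UQCRC1. SDHB gave 86.6, 89.3 and 110 CPM in PD-L1 and 99.9, 104 and 101 CPM in Vector dishes (-0.21 without PD-L1 dish 3, edgeR FDR 0.0275). CYC1 gave 365, 368 and 463 CPM against 438, 427 and 399 CPM (-0.20, edgeR FDR 0.0284), and UQCRC1, a core protein of complex III, gave 348, 346 and 422 CPM against 409, 403 and 389 CPM (-0.21, edgeR FDR 0.0202). COX6B1, which links the complex IV dimer, differed in that PD-L1 dish 3 fell among the Vector dishes: 136, 140 and 170 CPM against 163, 171 and 157 CPM (-0.25, edgeR FDR 0.00944). NDUFA4 reached -0.34 (edgeR FDR 0.00421).

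**Figure D4:**
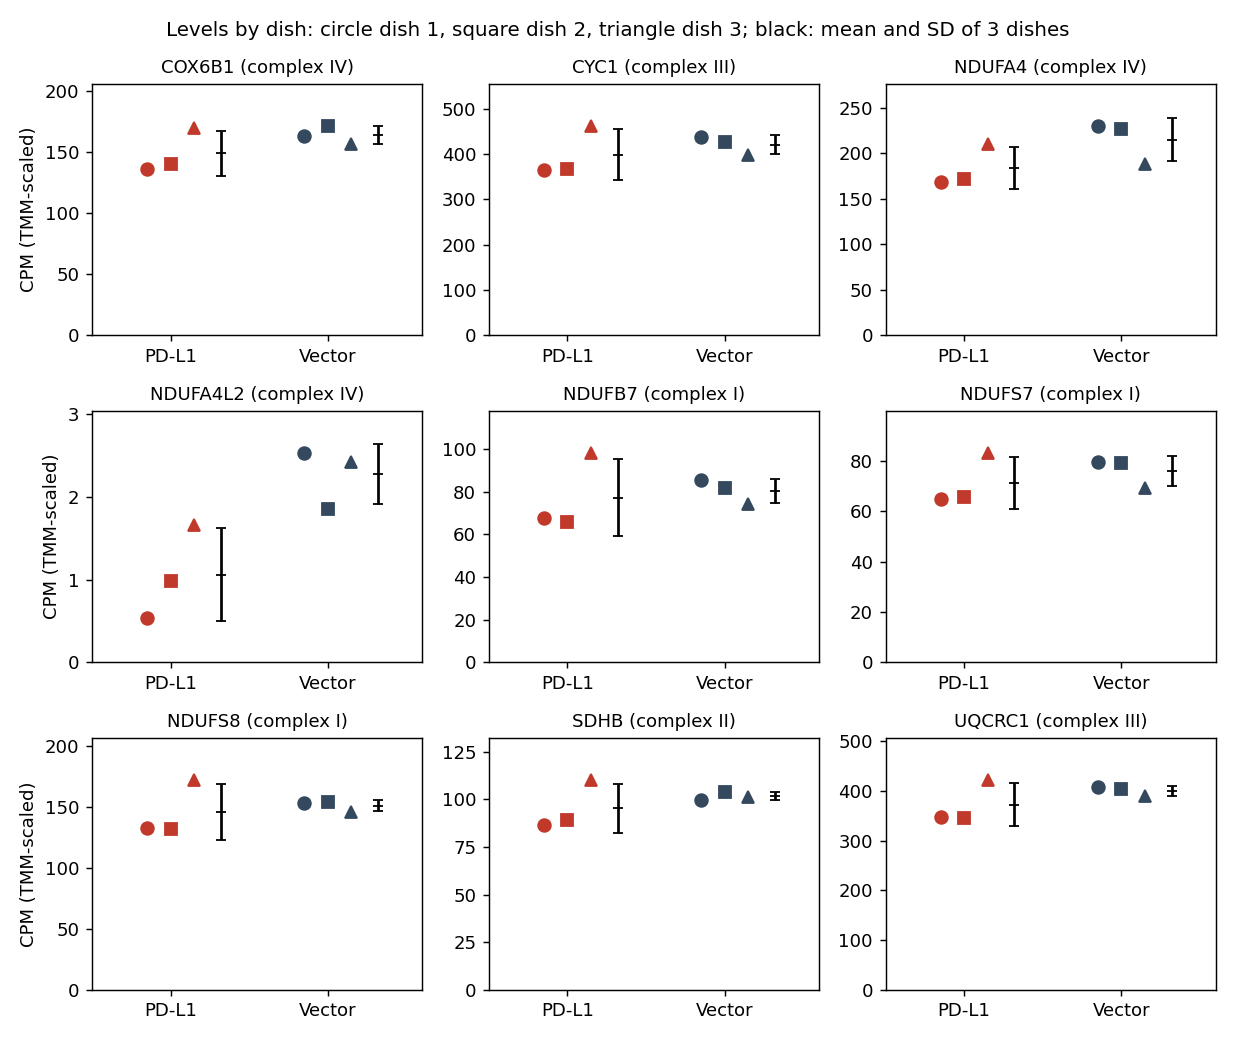
CPM by dish (y axis, from 0) of the 9 members called lower without PD-L1 dish 3, 1 panel per gene; red symbols are PD-L1 and dark symbols Vector dishes, with the mean and SD of 3 dishes in black. PD-L1 dishes 1 and 2 lie below every Vector dish in all 9 panels, and PD-L1 dish 3 (triangle) is the highest of the 6 dishes in NDUFB7, NDUFS7, NDUFS8, SDHB, CYC1 and UQCRC1.

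Base composition of the transcript moved with these calls. The 9 members had a median GC content of 61.774%, against 48.389% in the other 82 tested members, with a range of 40.376% to 66.506%. With a correction (offset) for GC content and length fitted to each dish, 4 of 90 members were called over 6 dishes, against 13.5% of all genes: NDUFB10 (log2 fold change 0.20, edgeR FDR 0.0374), NDUFAF3 (0.21, edgeR FDR 0.0272) and UQCR11 (0.26, edgeR FDR 0.0369) were higher and NDUFA4L2 was lower. With the offset and without PD-L1 dish 3, 13 of 91 were called, against 22.1% of all genes: these same 3 higher, and 10 lower. Of the 9 members called lower without the offset, SDHB, COX6B1, NDUFA4 and NDUFA4L2 were among those 10. The other 6 were NDUFB5, NDUFS4, NDUFS5, COX7A2, COX7C and COX7A2L. Counting the supercomplex factor COX7A2L, 6 of the 10 belonged to complex IV. That was 6 of its 14 tested members (42.9%), against 22.1% of all genes called in either direction. In 3 of the 10 lower members the sign turned against the fit of all 6 dishes without the offset. NDUFS5 went from 0.01 to -0.19, COX7C from 0.09 to -0.15 and COX7A2L from 0.00 to -0.18 (edgeR FDR 0.00831, 0.0429 and 0.0180). NDUFS7, NDUFS8, CYC1 and UQCRC1 had log2 fold changes between -0.05 and -0.03 in that fit, and NDUFB7 -0.15 (edgeR FDR 0.0673). Whether GC content was the cause of the calls it moved with was not tested.

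Other genes of the pathway were read from lists drawn up by function. Of 13 subunits encoded in mitochondrial DNA, 0 were called over 6 dishes, with a median log2 fold change of -0.13, and 4 were lower without PD-L1 dish 3, against 13.8% of all genes. With the GC and length offset 7 of the 13 were lower over 6 dishes, against 13.5% of all genes called in either direction, and 9 of 13 without PD-L1 dish 3, against 22.1%. Relative to the Vector mean, the median of these transcripts was -0.04, -0.20 and -0.22 log2 units in PD-L1 dishes 1 to 3. In Vector dishes 1 to 3 it was -0.11, 0.04 and 0.07, so PD-L1 dish 1 lay above Vector dish 1. Of 9 electron carriers and entry enzymes, 0 were called over 6 dishes, against 8.75% of all genes. Cytochrome c (CYCS), which carries electrons from complex III to complex IV, gave 493, 476 and 576 CPM against 557, 620 and 551 CPM, with a log2 fold change of -0.16 ± 0.09 (SE; edgeR FDR 0.293). CYCS was called lower without PD-L1 dish 3 (-0.25, edgeR FDR 0.00905) and with the offset over 6 dishes (-0.25, edgeR FDR 0.0208). Of 13 genes of coenzyme Q synthesis, 1 was higher: COQ8A, an atypical kinase, stood at 126, 129 and 137 CPM in PD-L1 and 110, 107 and 113 CPM in Vector dishes (log2 fold change 0.25 ± 0.07, edgeR FDR 0.0455). Without PD-L1 dish 3, 2 of these 13 genes were higher and 1 lower. The share called in this list was 7.69% over 6 dishes, against 8.75% of all genes. Without PD-L1 dish 3 it was 23.1%, against 21.6% of all genes.

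Of 47 tested assembly factors outside the naming rule, 2 were higher and 0 lower (4.3%), against 8.75% of all genes. Without PD-L1 dish 3, 3 were higher and 4 lower of 48 (14.6%), against 21.6% of all genes. LYRM7, which helps to insert the Rieske protein into complex III, gave 62.3, 65.2 and 54.1 CPM in PD-L1 and 41.0, 51.5 and 46.8 CPM in Vector dishes (0.38 ± 0.10, edgeR FDR 0.0290). TTC19, also a complex III factor, gave 87.2, 86.1 and 89.9 CPM against 70.8, 71.3 and 77.8 CPM (0.26 ± 0.07, edgeR FDR 0.0451). The groups did not overlap in either gene. With the offset over 6 dishes, LYRM7 (0.32, edgeR FDR 0.00653), TTC19 (0.30, edgeR FDR 0.00352) and COQ8A (0.37, edgeR FDR 3.44e-04) stayed called higher. In that fit 3 of the 47 assembly factors were higher and 1 lower (8.51%), against 13.5% of all genes. However, when each dish was left out in turn, COQ8A and TTC19 passed in 1 of 6 fits (without PD-L1 dish 3) and LYRM7 in 2 of 6 (without PD-L1 dish 3 or Vector dish 2), with edgeR FDR of up to 0.188.

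Of 20 genes of the tricarboxylic acid cycle and its pyruvate entry, 1 was lower (5%), against 8.75% of all genes called in either direction. OGDH, the first subunit of 2-oxoglutarate dehydrogenase, gave 86.8, 86.6 and 88.7 CPM in PD-L1 and 126, 115 and 115 CPM in Vector dishes. The dishes of each line lay close together and apart from the other line (log2 fold change -0.44 ± 0.07, edgeR FDR 0.00203), and the call held in 6 of 6 fits that left out 1 dish. Without PD-L1 dish 3, 1 gene of this list was higher and 1 lower (10%), against 21.6% of all genes. Of 18 regulators of mitochondrial gene expression, 0 were called over 6 dishes, against 8.75% of all genes. The fit that left out PD-L1 dish 3 gave 2 higher and 1 lower (16.7%), against 21.6% of all genes. NRF1 had a log2 fold change of 0.12, YY1 of -0.01 and GABPA of 0.26 (edgeR FDR 0.449, 0.926 and 0.133). PPARGC1A, the coactivator known to drive mitochondrial biogenesis, gave 4.64, 3.57 and 3.69 CPM in PD-L1 and 5.57, 6.11 and 5.22 CPM in Vector dishes. Its groups did not overlap, and the difference did not pass (-0.50 ± 0.16, edgeR FDR 0.0705), but it did with the offset over 6 dishes (-0.51, edgeR FDR 0.0385). In that offset fit 2 of the 18 regulators were higher and 1 lower (16.7%), against 13.5% of all genes. The 2 higher were POLG2 (0.29, edgeR FDR 0.0320) and TWNK (0.22, edgeR FDR 0.0315). GABPA was called higher without PD-L1 dish 3 (0.34, edgeR FDR 0.00505). Of 18 genes of inner membrane carriers and cristae shape, 0 were called over 6 dishes, against 8.75% of all genes. Without PD-L1 dish 3, 1 was lower (5.56%), against 21.6% of all genes called in either direction.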

How the data were processed

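Poly-A RNA of 6 dishes, 3 PD-L1 and 3 Vector, was analysed, with groups and numbers from the sample titles. The authors deposited raw whole-number counts per Ensembl gene, 1 column per dish; their normalized table was not used. CASAVA 1.8, STAR 2.5.1b, HTSeq 0.6.0 and the build hg19 are named per the submitters' processing notes. For the annotation, strand setting and filters on reads, nothing is given in the sources used here. Counts were filtered with filterByExpr, scaled with TMM and tested with robust quasi-likelihood in edgeR 4.0.16 (R 4.3.3) over 15818 genes, with Benjamini-Hochberg adjustment over all of them and an FDR under 0.05 counted as called. CPM are TMM-scaled. Deviations by dish used log2 CPM with a prior count of 2. Each SE is the fold change divided by the square root of F. The common biological coefficient of variation was 8.60%. The fits were tested on simulated data.

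Members and lists were chosen with earlier results of these data known. The text names CD274, members called with or without PD-L1 dish 3, in each complex the 2 with the smallest FDR and the highest and lowest level per kilobase, complex II, the isoform sets, and called genes of the other lists. Members named outside that rule were chosen after their values were seen, such as NDUFAF3, NDUFAF6, ATP5IF1, those with shared exons and those called with the offset. The same holds for CYCS, NRF1, YY1, GABPA, PPARGC1A, POLG2 and TWNK. GENCODE 29, on another build, was used only for names, biotypes, length, GC content (known for 97.6% of tested genes; natural splines with 5 degrees of freedom in the offset) and overlaps. Promoters came from RefSeq (GRCh38.p14). PECAM1, a listed marker, had no matching ID. Alternatives were RLE and upper-quartile scaling, DESeq2 1.42.0, limma-voom (3.58.1), other count filters, the replicate block, each dish left out, the offset alone, with the block and without PD-L1 dish 3, and an FDR of 0.01. Same-numbered dishes did not deviate together, so the block was not used. Python 3.11.15, pandas 2.3.3 and matplotlib 3.10.9 made tables and plots.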

Additional observations from a re-analysis of the deposited data

How the results depend on the processing

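Over all genes, 2136 (835 higher and 1301 lower) were called with the GC and length offset, 3598 with it and without PD-L1 dish 3, 530 at an FDR of 0.01, and 545 to 3512 with 1 dish left out. Members called numbered 0 with RLE scaling, with a mean of at least 5 CPM and at an FDR of 0.01, 4 with the offset, 13 with the offset and without PD-L1 dish 3, and 0 to 9 with 1 dish left out (0 for each dish other than PD-L1 dish 3); the cause was not tested, except that the filter removed NDUFA4L2. DESeq2 and limma-voom each called 1 member. With the offset and without PD-L1 dish 3 the median log2 fold change was -0.042 for members, -0.039 for complex III and -0.119 for complex IV. Upper-quartile scaling moved the median of all genes from 0.018 to 0.051 and that of members from 0.049 to 0.082, and gave 379 higher and 1015 lower calls against 245 and 1139. Same-numbered dishes correlated at -0.2124, -0.0512 and -0.1916, none best with its own number, so the numbers were not taken as pairs; with the replicate block 1447 genes and 1 member were called, and 1249 and 1 with the block and the offset. For 37 named members under 621 alternatives, 595 kept their side of the threshold (75 of them uncalled values that changed sign), 16 gained a call, and 7 lost it, all NDUFA4L2. The other 3 turned from above 0 to a lower call with the offset and without PD-L1 dish 3: NDUFS5 (-0.19), COX7C (-0.15) and COX7A2L (-0.18). The 7 members with intervals beyond 1.5-fold had Vector means of 3.05 CPM or less.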
